A study of Homo sapiens with 2 samples.

Results

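The RNA of 43 genes of DNA repair and of the Fanconi anaemia pathway was examined for peaks of the RNA-binding protein HNRNPC in A549 cells. The genes were listed by name, with earlier results of these data known and with no threshold on a measured value, and they are 43 of 20037 protein-coding genes that RefSeq places on the numbered chromosomes, X and Y of human genome build GRCh38. A gene had a peak when the summit of a peak, its highest point, lay within the RefSeq span of the gene. The series has 2 samples of A549, an established line of human non-small cell lung cancer cells. The IP group is 1 library of RNA recovered with 5 µg of antibody against HNRNPC, and the input group is 1 library of RNA from the lysate without antibody. No genetic change or drug treatment is given for either group. Only the authors' peaks of the IP library enter the results, and the input library was not used here on its own. As each group is a single library, there is no replicate check and no test between samples, and each value below describes this library alone. The peak list gives no read totals and its depth is unknown.

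Cells mend DNA by several routes. Homologous recombination copies a broken stretch from the sister chromatid, end joining ligates broken ends directly, the Fanconi pathway unhooks crosslinks between the strands, mismatch repair removes replication errors, and excision repair cuts out damaged bases or nucleotides. HNRNPC is an abundant nuclear protein that binds runs of U in nascent transcripts and is also described as a reader of RNA whose structure is opened by N6-methyladenosine. The 43 genes were put into 6 classes by the main role of their products: 12 in homologous recombination, 8 in Fanconi crosslink repair, 5 in end joining, 3 in mismatch repair, 6 in excision repair and 9 in damage signalling and the chromatin response. Several genes act in more than one route, so each was counted in a single class.

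Across the series 23111 peaks lay on the chromosomes used. Of 10 markers of lung epithelium and carcinoma CDH1 alone had peaks, with 10, and KRT8, KRT18, EPCAM and NKX2-1 were among those without. None of 6 blood and immune markers and none of 5 fibroblast and endothelial markers had a peak. A peak needs both an expressed RNA and enrichment, and expression was not measured, so the marker counts neither bear out nor contradict the label of the cells.

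HNRNPC peaks lay in 26 of the 43 repair genes (60.5%, 95% exact Clopper-Pearson interval 44.4 to 75.0%), against 18.4% of all protein-coding genes (3685 of 20037). These 26 genes held 146 peaks. RIF1, an effector of the choice between repair routes, had the most with 26, and was followed by the DNA polymerase theta gene POLQ with 14, FANCD2 with 13 and NBN with 12. These 4 genes held 44.5% of the peaks, whereas 15 of the 26 genes had 1 to 3 peaks each. Counts of 10 or more peaks were reached by 6 of the 43 genes (14%) and by 3.9% of all protein-coding genes. Counts of 5 or more were reached by 10 of the 43 (23.3%) and by 8.38% of all. Such intervals cover counting error only, and genes without a peak cannot be told apart from genes with little RNA in these cells.

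**Figure D1:**
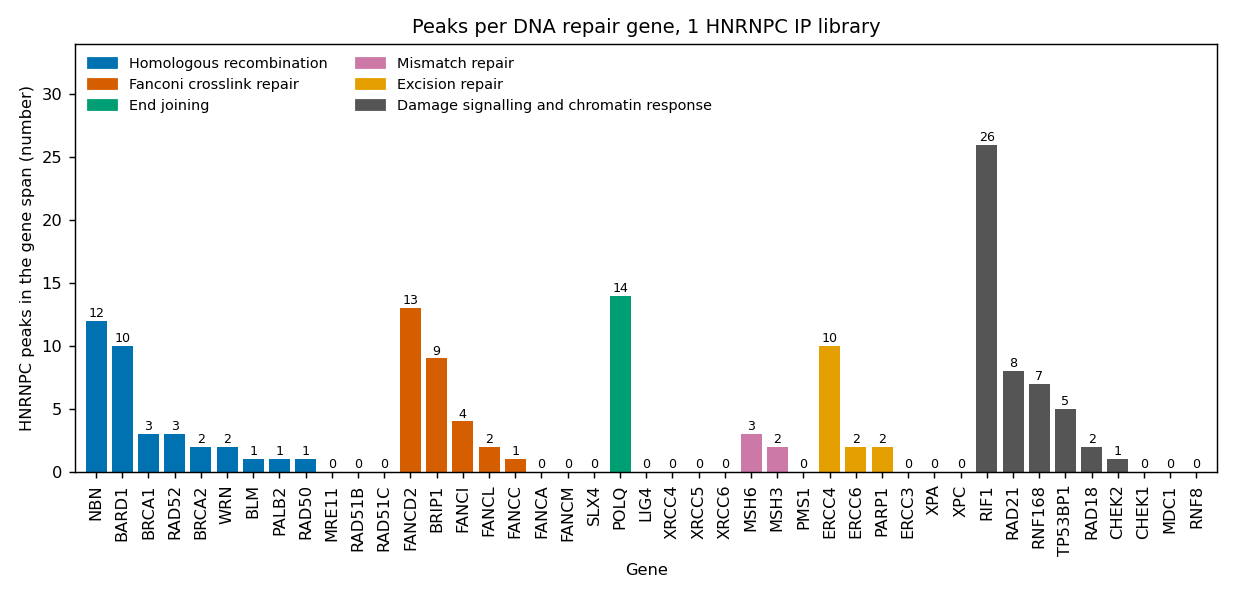
Number of HNRNPC peaks (y axis) with the summit in the span of each of the 43 repair genes (x axis), coloured by repair class, in 1 IP library. RIF1 stands highest with 26 peaks, POLQ is the single end joining gene with a bar, at 14, and 17 genes are at 0.

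By class, against 18.4% of all protein-coding genes, peaks were found in 9 of 12 homologous recombination genes, in 5 of 8 Fanconi genes, in 2 of 3 mismatch repair genes, in 6 of 9 signalling genes, in 3 of 6 excision repair genes and in 1 of 5 end joining genes. With only peaks of q of 0.001 or less, or of fold 4 or more, the Fanconi count was 3 of 8. The end joining share, 20% with an exact interval of 0.505 to 71.6%, lay near that of all genes. It was lowest and the homologous recombination share, 75.0% with an interval of 42.8 to 94.5%, was highest, but the intervals of all 6 classes overlap and no difference between classes was tested. Per length of gene the order changed. The signalling genes had 8.9 peaks per 100 kb of span, excision repair 4.71, Fanconi 3.59, end joining 2.49, homologous recombination 1.95 and mismatch repair 1.46, against 1.76 over all protein-coding genes. This 1.76 is not matched to the spans of the classes. All protein-coding genes had 2.87 at 20 to under 50 kb, 3.19 at 50 to under 100 kb and 1.23 at 100 kb and over. End joining, homologous recombination and mismatch repair lay between 1.23 and 2.87. RIF1 alone held 26 of the 49 signalling peaks, and RAD51B, with a span of 863 kb and no peak, made up much of the 1798 kb of the homologous recombination genes.

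Most of the repair genes are long, and in this library the share of genes with a peak varied with span. The median span was 79.1 kb for the 43 genes and 24.1 kb for all protein-coding genes. When all protein-coding genes were split into 10 equal groups by span, the share with a peak was 2.05% in the group of the shortest genes, was highest in the ninth group at 40.4%, and was 33.6% in the group of the longest genes, of 152 kb and over. Of the 13 repair genes with spans of 20 to under 50 kb, 6 had a peak (46.2%), against 21.3% of all genes of that range. Of the 17 with spans of 50 to under 100 kb, 11 had a peak (64.7%), against 34.7%. Of the 11 with spans of 100 kb and over, 9 had a peak (81.8%), against 36.0%. The 2 repair genes under 20 kb, LIG4 and MDC1, had none, in a range where 5.05% of genes did. At the share of all genes of the same range, 12.7 of the 43 genes would carry a peak, where 26 did. Expression was not matched in this comparison, and its part in the difference was not tested.

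**Figure D2:**
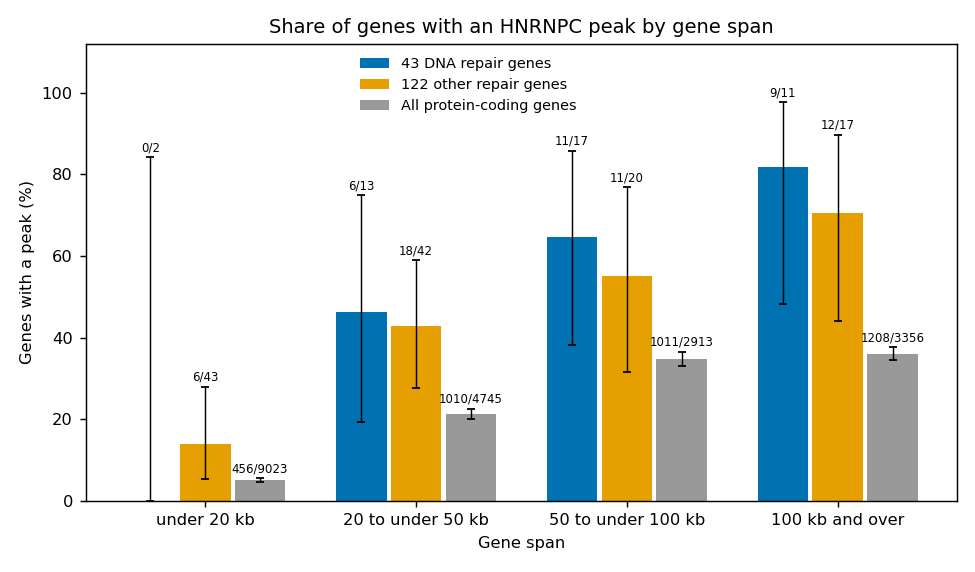
Share of genes with an HNRNPC peak (y axis, %) in 4 ranges of gene span (x axis) for the 43 repair genes, for 122 other repair genes and for all protein-coding genes. Bars give the share, error bars the 95% exact binomial interval and labels the genes with a peak over all genes, and the blue bars of the 3 longer ranges stand at 46.2%, 64.7% and 81.8%.

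Among the homologous recombination genes the peaks gathered in NBN and BARD1. NBN encodes nibrin, the subunit that brings the MRE11 and RAD50 nuclease complex to chromosome breaks. It spans chromosome 8, 89933331 to 89984667, and its 12 peaks (23.4 per 100 kb) had folds, the authors' enrichment over the background of their peak caller, from 3.31 to 11.1 with a median of 7.20. The highest, at 89981356 to 89981499, was 144 bp wide with a −log10 q of 15.8, and it ranked 1208 among the 23111 peaks. Another 2 NBN peaks reached 9.16, and 5 of the 12 lay together in 6449 bp at the upper end of the coordinates. Its partners were unlike it, since RAD50, the structural subunit, had a single peak of fold 6.73 and MRE11, the nuclease, had none over 96.8 kb.

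BARD1 encodes the partner of BRCA1 in a ubiquitin ligase. It spans chromosome 2, 214725646 to 214809683, and its 10 peaks (11.9 per 100 kb) had folds from 5.09 to 6.73, the highest value being shared by 3 peaks. The peaks were spread over the whole span, from 246 bp to 81816 bp after the 5′ end, and the last 3 lay within 1075 bp. BRCA1 itself (chromosome 17, 43044295 to 43170327) had 3 peaks. Of these, 2 had a fold of 5.27 and lay near the middle of the span, at 43104136 to 43104209 and 43106465 to 43106516. The third, of fold 4.68, had its summit also within the pseudogene BRCA1P1 and 2 lncRNA genes, so its source is uncertain. BRCA2, a mediator of strand exchange, had 2 peaks, both of fold 3.82, and PALB2, which joins BRCA1 to BRCA2, had 1 of 4.30.

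RAD52, an annealing protein, had 3 peaks with folds of 4.30, 5.76 and 5.27 inside 1532 bp of its 79.4 kb span (chromosome 12, 929776 to 931307). Of the RecQ helicases, BLM had a single peak of 5.27 at its 5′ end and WRN had 2 of 4.30 and 3.82. RAD51B and RAD51C, which act in strand exchange, had no peak over 863 kb and 43039 bp. Thus 8 of the 9 homologous recombination genes with peaks had a best fold below 7.04, the median over all protein-coding genes with a peak, and NBN alone lay above it.

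In the Fanconi pathway a core complex places ubiquitin on the FANCD2 and FANCI pair at stalled forks. Both genes of the pair had peaks. FANCD2 (chromosome 3, 10026437 to 10101932) had 13, or 17.2 per 100 kb, with folds from 4.79 to 9.41 and a median of 6.24. Its highest peak, 101 bp wide at 10073242 to 10073342, had a −log10 q of 11.4. Of the 13, 10 lay within 23835 bp in the 5′ part of the gene and none in the last 28631 bp. RefSeq lists the pseudogenes FANCD2P1 and FANCD2P2, and how the authors treated reads shared with such copies is not given in the sources used here. FANCI (chromosome 15, 89243979 to 89317259) had 4 peaks with folds of 6.73, 5.87, 6.86 and 6.04, a narrow range, and the widest was 477 bp.

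BRIP1, a helicase that binds BRCA1, had 9 peaks over 184 kb (chromosome 17, 61679139 to 61863528) with folds from 4.73 to 7.22. The highest lay at 61801272 to 61801434, and 6 of the 9 had folds of 5.27 or 5.76. In the core complex the ubiquitin ligase gene FANCL had 2 peaks and FANCC had 1, all at a fold of 3.82. FANCA and the translocase gene FANCM had none, and neither did the nuclease scaffold gene SLX4. The peaks of the class thus lay mainly in the ubiquitinated pair and in BRIP1, which held 26 of its 29. Where all 13 genes with a Fanconi name or alias were counted, BRCA1, BRCA2, PALB2, RAD51C and ERCC4 included, 9 had a peak.

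The 4 genes of classical end joining in the list had no peak, in a library where 18.4% of protein-coding genes had one. The exact interval for these 4 genes, 0 to 60.2%, includes that share, so their lack of a peak does not set them apart. XRCC5 and XRCC6 encode the Ku dimer that caps broken ends, and XRCC4 and LIG4 the ligase complex that seals them. Their spans ran from 10.9 kb for LIG4 to 297 kb for XRCC4, with 96.9 kb for XRCC5. In the span ranges of LIG4 and XRCC4, 5.05% and 36.0% of all protein-coding genes had a peak. POLQ, which drives the alternative route of end joining at short homologies, had 14 peaks over 115 kb (chromosome 3, 121431431 to 121545988), or 12.2 per 100 kb. Their folds ran from 4.30 to 6.73 with a median of 5.03, below the 5.76 of all peaks. A run of 7 POLQ peaks lay within 8365 bp at 121488530 to 121496894, with a median fold of 4.79 and up to 326 bp wide. The highest POLQ peak, at 121510119 to 121510204, lay outside this run.

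Of the mismatch repair genes MSH6 and MSH3 encode subunits of the dimers that recognise mismatches. MSH6 is short, 26957 bp (chromosome 2, 47783145 to 47810101), and had 3 peaks. The highest, at 47783166 to 47783484 in the first bases of the gene, reached 8.39-fold enrichment with a −log10 q of 9.25, and the others had 5.05 and 5.15, the last with a width of 601 bp. MSH3 is about 8 times as long, at 222 kb, and had 2 narrow peaks of 5.76 and 5.27, both in the first 10% of the span. PMS1, a MutL homolog, had none.

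In excision repair the peaks lay mainly in ERCC4, which encodes the XPF nuclease subunit that cuts on the 5′ side of a lesion and also acts on crosslinks. It spans only 32.2 kb (chromosome 16, 13920154 to 13952348) and had 10 peaks, 31.1 per 100 kb, the highest density of the 43 genes. With only peaks of q of 0.001 or less it had 6, or 18.6 per 100 kb, and lay below RAD21, with 20.8, and RNF168, which kept its 7 peaks. The summed width of all 10 ERCC4 peaks, 2771 bp, covered 8.61% of the span. Folds ran from 4.30 to 8.30, and the highest peak, 702 bp wide at 13947663 to 13948364, lay with 3 others in 5744 bp near the 3′ end. The summits of 2 ERCC4 peaks at the 5′ end also lay in a lncRNA gene, LOC105371093. ERCC6, a factor of transcription-coupled repair, had 2 peaks of 5.10 and 5.27, and PARP1, the sensor of strand breaks, had 2 of 3.72 and 4.52. The helicase gene ERCC3 and the damage recognition genes XPA and XPC had none over 36.9, 42.9 and 33.5 kb.

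The signalling and chromatin genes held both the most peaks and the highest fold. RIF1 acts with TP53BP1 to protect broken ends from resection. Its 26 peaks (chromosome 2, 151409902 to 151534435, 20.9 per 100 kb) placed it at rank 51 by number among the 3685 protein-coding genes with a peak. Their folds ran from 3.82 to 8.71 with a median of 5.27. The widest, 2323 bp at 151463432 to 151465754, was the only peak of 1000 bp or more in the 43 genes, and it had a fold of 8.30. All 26 summits lay before position 0.467 of the span, counted from 0 at the 5′ end to 1 at the 3′ end, and the 66320 bp after the last of them had no summit. TP53BP1 (chromosome 15, 43403061 to 43510640) had 5 peaks over 108 kb with folds of 5.99, 4.30, 5.27, 4.30 and 4.79, of which 3 peaks were left at q of 0.001 or less.

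RNF168 and RNF8 encode ubiquitin ligases that mark chromatin beside a break, RNF8 acting before RNF168. RNF168 (chromosome 3, 196468783 to 196503768) had 7 peaks, of which all had a fold of at least 6.51. Its highest, 722 bp wide at 196502896 to 196503617, had the highest fold of the 146 peaks, 12.1, with a −log10 q of 15.2, and RNF168 ranked 366 among the 3685 genes by best fold. Another 4 of its peaks lay in 4546 bp near the 3′ end. RNF8, with a similar span of 40.8 kb, had none. MDC1, the scaffold that recruits RNF8, also had none.

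RAD21, a subunit of the cohesin ring that holds sister chromatids together, had 8 peaks over 28.8 kb (chromosome 8, 116845934 to 116874776, 27.7 per 100 kb) with folds from 4.26 to 7.46. Of these, 7 lay within 14738 bp, and 1 summit at the end of the span was shared with the lncRNA gene RAD21-AS1. RAD18, a ligase that acts at stalled forks, had 2 peaks of 4.79 and 4.30, of which 1 was left at the stricter q. Of the checkpoint kinases CHEK2 had 1 of 4.79 and CHEK1 had none over 56.0 kb. RefSeq lists pseudogenes for RAD21 and CHEK2, and also for RAD52 and PARP1 of the classes above.

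The folds of the 43 repair genes were somewhat low for this library. The median fold of their 146 peaks was 5.43 (quartiles 4.79 and 6.73), against 5.76 (4.79 and 7.22) for all peaks, and 12 of the 146 (8.22%) reached 8, against 18.7% of all. The median best fold of the 26 genes was 5.88, against 7.04 for all protein-coding genes with a peak, and 8 of the 26 lay above that value. These 8 were RNF168, NBN, FANCD2, RIF1, MSH6, ERCC4, RAD21 and BRIP1. In the 122 other repair genes, of which 47 had a peak, the median best fold was 6.87, so low folds are not general to repair genes. Best fold grows with the number of peaks of a gene, and the median number was 3 in the 26 genes and 4 in all genes with a peak. The peaks were also narrow, with a median width of 101.5 bp against 125 bp. Many peaks shared a value: 22 of the 146 stood at 5.27 (15.1%, against 6.18% of all peaks) and 12 each at 4.30 and 4.79. Genes with the same best fold, such as BARD1, RAD50 and POLQ at 6.73, therefore have no order among themselves.

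**Figure D3:**
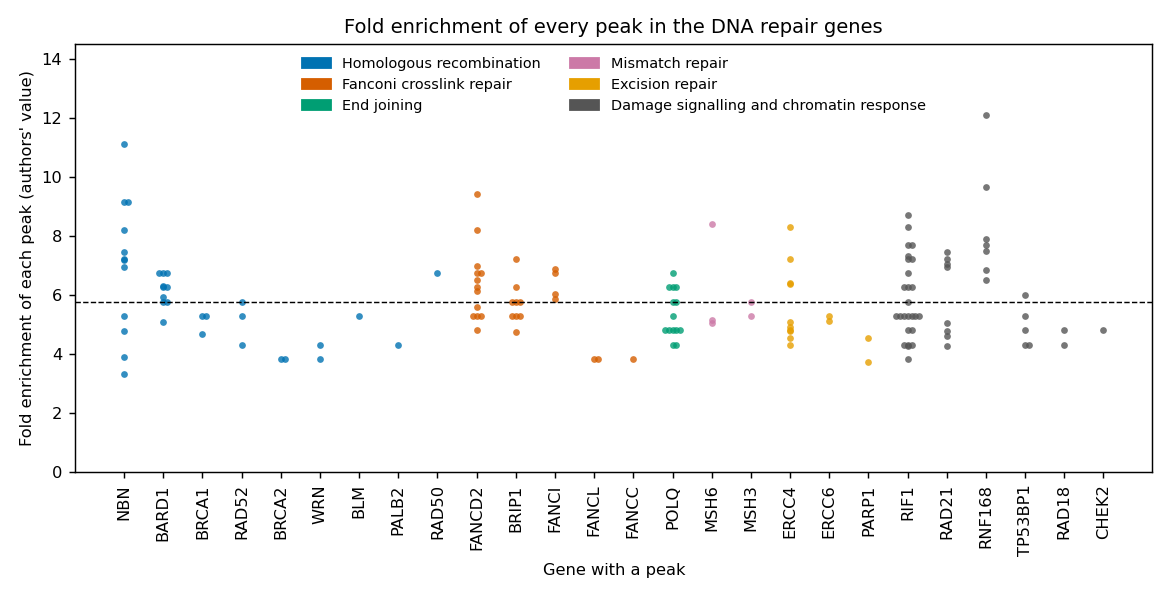
Fold enrichment (y axis, the authors' value) of each of the 146 peaks, as points, in the 26 repair genes with a peak (x axis), coloured by class, with equal values set side by side. The dashed line marks the median of all peaks in the library, 5.76, which every RNF168 peak exceeds and which no peak of 13 genes, such as BRCA1, BRCA2 and PARP1, passes.

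The place of the summits along the gene was followed in the 22 genes with a peak whose strand the reference gives; NBN, WRN, FANCI and RAD21 had no promoter entry. In these 22 genes 89 of 120 summits (74.2%, exact interval 65.4 to 81.7%) lay before the midpoint of the span, against 42.3% of 19183 summits in all protein-coding genes with a strand. The final 20% of the span held 12 summits (10.0%), against 25.7%. In 38 other repair genes with a peak and a strand, 57.7% of 272 summits lay before the midpoint (exact interval 51.6 to 63.7%) and 11% in the final 20%, a share close to that of the 43 genes. Without RIF1 the share before the midpoint was 67.0%. Counted by gene, the median summit lay before the midpoint in 16 of the 22 (72.7%), against 51.0% of the 3075 genes. Peaks of a gene are not independent of each other, which the interval ignores, and exons and introns are not resolved by the reference used here.

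**Figure D4:**
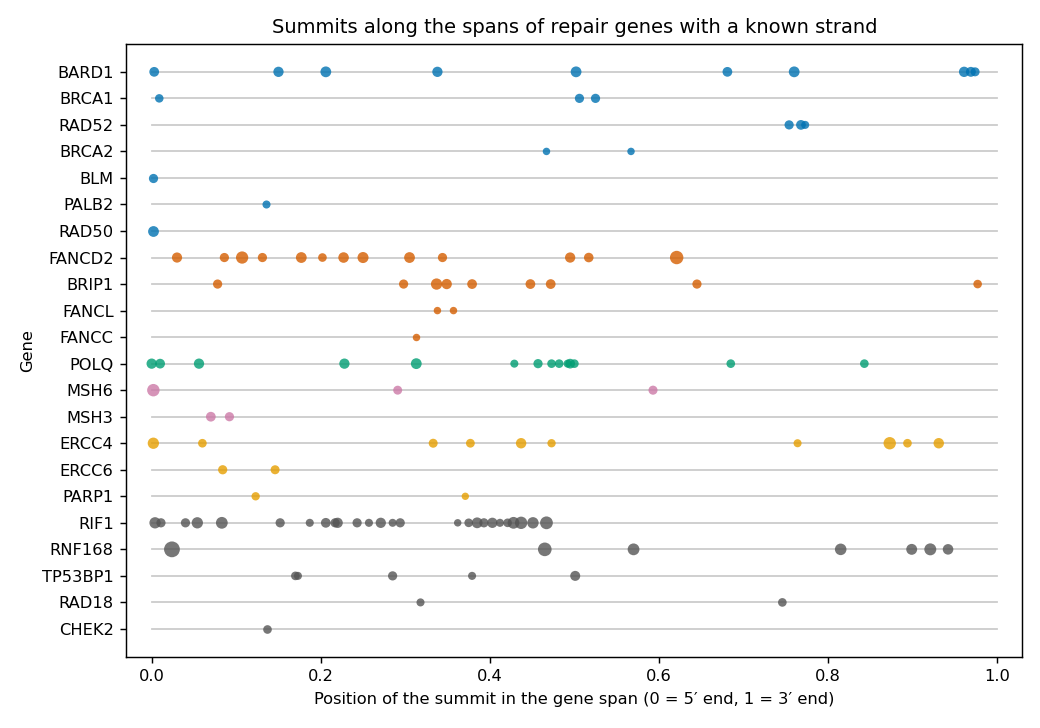
Position of each summit (x axis, from 0 at the 5′ end to 1 at the 3′ end of the gene span) in the 22 repair genes with a peak and a known strand (y axis), with points sized by fold and coloured by class as in the plot of peaks per gene. RIF1 has no point beyond 0.467, and the points of BLM and RAD50 sit at the 5′ end.

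At the very start of the gene the share of the 22 repair genes with a peak and a strand that had a summit was below that of all such genes. Its exact intervals include the shares of all such genes, so no difference is shown. These differences were not tested. NBN, WRN, FANCI and RAD21, without a strand in the reference, are not counted. NBN, FANCI and RAD21 had a summit 42, 73 and 149 bp from an end of the span. If these are 5′ ends, the shares of the repair genes would be higher than those given here. At 250 bp the repair genes might then not lie below all genes. A summit lay within 250 bp of the 5′ end in 6 of the 22 genes (27.3%, exact interval 10.7 to 50.2%), against 33.4% of all genes with a peak and a strand, and within 1000 bp in 8 (36.4%, 17.2 to 59.3%), against 51.7%. The 6 were BARD1, BLM, ERCC4, MSH6, POLQ and RAD50, and RIF1 and RNF168 joined them at 1000 bp. For BLM and RAD50 this was the only peak of the gene. No summit of the 120 lay within 1000 bp of the 3′ end, a count that allows a share of up to 3.03% (upper end of the exact interval), against 0.308% of all summits. By gene this was 0 of 22, which allows up to 15.4%, against 1.82% of all genes with a peak and a strand. Within 5 kb of the 3′ end there were 10 summits (8.33%, against 9.25% of all summits) in 4 of the 22 genes (against 28.2% of genes), namely BARD1, BRIP1, ERCC4 and RNF168.

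Among the genes with a known strand, the peak at the 5′ end reached into the first 50 transcribed bases in 5. NBN, WRN, FANCI and RAD21 have no promoter entry and could not be examined for this. The stretch from base 21 to base 50 after the RefSeq start is shown for the 5 genes, since it is the RNA under the 5′ side of these peaks. The peaks of MSH6, ERCC4 and BLM begin inside the stretch, and those of POLQ and RAD50 cover all of it. Sequences are those of RefSeq on the transcribed strand of GRCh38.p14, 5′ to 3′, with the bases inside the peak in capitals.
POLQ: AGATGTCCGCAGCTGTTGCCAGGCCAGGGT
RAD50: GAGGCAGGAAGCTGTGAGTGCGCGGTTGCG
MSH6: cCGCGCGGTAGATGCGGTGCTTTTAGGAGC
ERCC4: agggcagccggctCGACGGATTGCCATGGC
BLM: gcttggcgcggcgGCCGTGGTTGCGGCGCG
They lie at chr3:121545939-121545968 on the minus strand for POLQ, and on the plus strand at chr5:132556997-132557026 for RAD50, chr2:47783165-47783194 for MSH6, chr16:13920174-13920203 for ERCC4 and chr15:90717366-90717395 for BLM. The POLQ summit fell at base 43, inside the stretch shown, whereas the summits of MSH6, ERCC4, BLM and RAD50 fell at bases 66, 69, 59 and 219. The folds of these peaks were 6.24 in POLQ, 6.73 in RAD50, 8.39 in MSH6, 7.22 in ERCC4 and 5.27 in BLM. The share of T was 13.3 to 23.3% over the 5 stretches. None held a run of TTTTT, the DNA form of the U-run that HNRNPC is known to bind, or of AAAAA, its reverse complement. A run of TTTTT occurred in 2.19% of the 35116 stretches of this kind in the reference, and either run in 3.89%. Among the 4682 stretches of protein-coding genes with a peak, TTTTT occurred in 1.47%. As the runs are this rare, their absence from 5 stretches cannot set these genes apart from others. The remaining bases of the peaks were not analysed for sequence.

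Beyond the 43 genes, 122 further repair genes were listed by role. Of these, 47 had a peak (38.5%, exact interval 29.9 to 47.8%), against 18.4% of all protein-coding genes, and their median span was 32.5 kb. By class, peaks lay in 10 of 28 further homologous recombination genes, 4 of 11 Fanconi genes, 2 of 9 end joining genes, 3 of 4 mismatch repair genes, 9 of 37 excision repair genes and 19 of 33 signalling genes. Among the end joining genes these were the kinase gene PRKDC, with 71 peaks and a best fold of 15.95, and LIG3, with 6 and 6.87, whereas NHEJ1, DCLRE1C, PAXX, POLL, POLM and APLF had none. The Ku and ligase genes without a peak thus stood beside PRKDC, the partner of Ku, with more peaks than any of the 43 genes.

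Of the signalling genes, the checkpoint mediator CLSPN had 22 peaks and the highest fold, 13.0, the cohesin gene STAG2 had 22 and 10.6, and the kinase gene ATM had 36 and 8.19, of which 13 summits also lay in C11orf65. In homologous recombination the nuclease genes GEN1 (13 peaks, best fold 8.19, 6 summits shared with a lncRNA gene) and DNA2 (5 peaks, 9.64) led. In the Fanconi class USP1, which removes ubiquitin from FANCD2, had 5 peaks and a best fold of 7.92, and FANCB and WDR48 had 2 each with 6.73. In mismatch repair PMS2, which has pseudogene copies, had 3 peaks and a best fold of 6.24. In excision repair the glycosylase genes TDG and NEIL3 had 3 peaks each, with best folds of 10.6 and 9.64, and ERCC8 and RAD23B had the most, 4 each.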

How the data were processed

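RNA immunoprecipitation sequencing gave 1 IP and 1 input library of A549 cells. Per the submitters' processing notes, HISAT2, MACS2 and bedtools were used with build hg38; versions, settings and the control used are not given in the sources used here. The deposited peak list of the IP library holds, per peak, a position and summit, a score, a fold enrichment (ratio) and −log10 values of p and q, with q of at most 0.00998. All are the authors' values. The depth is unknown, and intervals cover counting error only.

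Summits were placed in gene spans of RefSeq GRCh38 patch 14, counting a summit for every gene that held it. Strand came from the reference's promoter table, which matched 38 of the 43 genes; NBN, WRN, FANCI, RAD21 and XRCC5 had no entry. The members and lists were chosen with earlier results of these data known. Full values are given for genes among the 12 highest by best fold or by number of peaks, ties included, and for the other repair genes for the 2 highest by fold and the highest by number in each class; further genes without a peak are named by role. Some items that this rule would name are not reported here. Alternatives were a stricter q or fold, other overlap rules, summits in several genes left out, other span classes, and single genes left out. The assignment was tested on simulated data. Tools were Python 3.11.15 with pandas 2.3.3, numpy 2.4.6, matplotlib 3.10.9 and scipy 1.17.1.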

Additional observations from a re-analysis of the deposited data

How the results depend on the processing

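The number of Fanconi genes with a peak, 5 of 8, fell to 3 with q of 0.001 or less and to 3 with a fold of 4 or more, where FANCC and FANCL lost their peaks, and was 9 of 13 with all genes of a Fanconi name or alias. The 26 genes with a peak became 20 at the stricter q (46.5%, against 16.7% of all protein-coding genes), with BRCA2, PALB2, WRN and PARP1 lost as well and with ERCC4 falling from 10 peaks to 6, TP53BP1 from 5 to 3 and RAD18 from 2 to 1, and 23 at the stricter fold (53.5%, against 17.7%). The other overlap rules and the removal of summits in several genes left 26. Without genes that have a pseudogene entry, an alternative chosen after seeing the data, 20 genes with 116 peaks remained. Single genes were left out of the position of summits after seeing the data, and the share before the midpoint ran from 67.0 to 77.3%. No paired analysis was possible because each group is a single library and no test was made. Depth is unknown, so a gene without a peak may hold bound RNA that this library could not show.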

Other observations

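The following genes were singled out after their values were seen. The cohesin genes among the further repair genes had peaks, in a library where 18.4% of all protein-coding genes had one, with 21.3% at the span range of SMC1A and SMC3 and 36.0% at that of STAG1 and STAG2: SMC1A had 8 with a best fold of 7.93, SMC3 had 3 with 6.24, STAG1 had 14 with 8.19 and STAG2 had 22 with 10.6, beside the 8 of RAD21. Among the genes that help forks pass lesions, HLTF had 19 peaks with a best fold of 9.16, REV3L had 8 with 6.24, POLK had 7 with 7.22 and POLI had 3 with 7.22. POLH, REV1 and SHPRH had none. These genes were counted with the 33 further signalling genes, of which 19 (57.6%) had a peak, a share close to theirs. Of the DNA glycosylase genes TDG, NEIL3, NEIL2 and UNG had peaks, and OGG1, MUTYH, NTHL1, NEIL1, MPG, SMUG1 and MBD4 did not, against 38.5% of the further repair genes and 18.4% of all protein-coding genes with a peak. No difference between these genes was tested.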
